A study of Mus musculus with 27 samples.

Results

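The sarcomere and Z-disc genes described here are 33 genes that encode the contractile filaments of striated muscle and the structures that anchor them, chosen by name and by function, among 25209 genes listed in every deposited table. They are the myosin heavy chains Myh6 and Myh7, the myosin light chains Myl2, Myl3, Myl4 and Myl7, the troponins Tnnt1, Tnnt2, Tnni1, Tnni3 and Tnnc1, the actins Actc1 and Acta1, and Tpm1, Tmod1 and Lmod2 of the thin filament. Titin (Ttn), Mybpc3, Myom1 and Myom2 belong to the thick filament and the M-band, and Actn2, Tcap, Ldb3, Csrp3, Nebl, Myoz2, Cryab, Des, Smpx, Xirp1, Xirp2, Pdlim5 and Ankrd1 to the Z-disc or to structures linked to it. RNA of V6.5 cells, a mouse embryonic stem cell line, was sequenced in 27 libraries that cross 3 genotypes with 4 stages. These are naive stem cells at day 0 with 3 libraries per genotype, and, with 2 libraries per genotype each, primed cells at day 2, cultures differentiated to cardiomyocytes (CM) at day 7.5 and to neural progenitors (NPC) at day 10. The genotypes are WT and the knockout clones KO4 and KO8, in which a triple transcription terminator, together with mCherry or puromycin resistance, was inserted by CRISPR-Cas9 at the third exon of Zfp512b. Naive cells grew in 2iLIF medium and primed cells in serum with LIF. Embryoid bodies were formed in hanging drops for both CM and NPC cultures, with vitamin C for CM and later retinoic acid for NPC. Each clone is 1 line, and the methods describe no such selection for the WT cells. The replicate libraries are not said to come from separate differentiations, so p-values measure the spread between these libraries, which may be technical.

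In the sarcomere, thick filaments of myosin pull on thin filaments of actin, and the troponin complex on the thin filament lets them engage when calcium is bound. Thin filaments are anchored at the Z-disc, where alpha-actinin crosslinks them, titin spans from there to the M-band, and capping proteins set the length of the thin filament. The embryonic heart starts with slow troponin I (Tnni1) and with light chains shared by atrium and ventricle, and later turns on cardiac troponin I (Tnni3). The light chain Myl2 is that of the ventricle.

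The deposited tables give 1 mean per gene over the clone and WT libraries compared, the base mean, in normalized reads. The reads of each library were worked out from the last digits of the 2 base means of a stage. This was possible for genes with a base mean up to about 1000 (up to 100 in naive cells) and for few above. Thus 15 of the 33 members have values per library in CM, 31 in NPC, 31 in primed and 25 in naive cells. The libraries held about 15.1 to 39.7 M reads on genes, and 17.1 to 19.3 M in CM (M stands for 1000000). The targeted gene Zfp512b had 1118 and 1060.1 normalized reads in the WT libraries of the CM stage, 184 and 209 in KO4 and 155 and 173 in KO8. The clones thus held 18.0% and 15.1% of the WT mean, and in primed cells 21.5% and 17.8%, while its reads in naive and NPC libraries were not recovered. Libraries of a group differed by more than the sampling noise of independent reads, with a chi-square per degree of freedom of 1.79 to 5.50. Counting both ends of a fragment as reads would raise these values as well, so the lowest of them may hold no other noise. The value of 5.50 was that of the WT libraries of the CM stage, the reference of both clones there. The KO4 and KO8 libraries of that stage were at 2.76 and 2.56. The KO8 libraries of the NPC stage stood further apart than any of these, at 11.1.

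As means over WT and clone libraries, 30 of the 33 members had their highest level in CM, and 22 were at least 10 times higher there than at any other stage. These levels are parts per 1000000 (ppm) of the sum of all base means of a table, averaged over the KO4 and the KO8 table. They carry no error because the authors' means pool the libraries. Per kilobase of exon, cardiac alpha-actin (Actc1, chr2:113873018-113879284) was the highest member in CM with 409 ppm per kilobase. It was followed by the atrial light chain Myl7 (chr11:5796640-5798785) with 239, cardiac troponin T (Tnnt2, chr1:137737452-137748837) with 190.3 and tropomyosin 1 (Tpm1, chr9:66870397-66897213) with 174. Positions are in mm9. The slow myosin heavy chain Myh7 (chr14:55589525-55613471) and the neighbouring Myh6 (chr14:55560758-55585764) had 75.5 and 52.7, and titin, whose annotated exons add up to 116828 bases, had 1.10.

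The rise into CM differed in size between members. Csrp3, a Z-disc LIM protein, was at 0.00967 ppm in naive cells, 0 in primed cells, 0.0143 in NPC and 23.6 in CM. Actc1 went from 0.00451 in naive cells to 662. Lmod2, which lengthens thin filaments, had no read at the other stages and 2.75 ppm in CM. Several members were already present in stem cells. Ttn had 42.9 ppm in naive cells, 18.1 in primed cells, 0.765 in NPC and 129 in CM. Tpm1, which is also a cytoskeletal protein outside muscle, was between 58.7 and 225 before CM and at 1128 there. The 3 members that peaked elsewhere were slow skeletal troponin T (Tnnt1, highest in primed cells with 7.52 ppm against 5.56 in CM), the M-band gene Myom2 (highest in naive cells with 4.52 against 0.69) and Xirp2 (highest in primed cells with 0.932 against 0.0674).

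**Figure D1:**
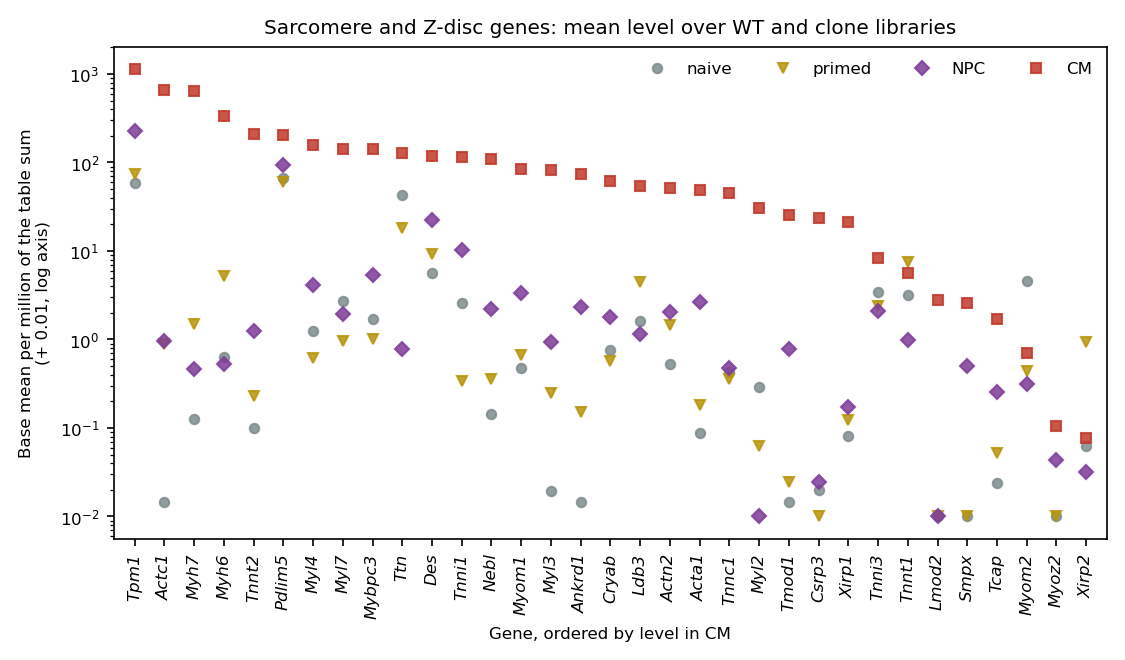
Level of each of the 33 genes at the 4 stages, as base mean per 1000000 of the table sum plus 0.01 on a log axis, averaged over the KO4 and the KO8 table. Points are the authors' means over WT and clone libraries, and the CM points (red squares) are the highest for 30 genes.

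The promoters of these genes were read to see what they share beyond function. RefSeq promoter windows (build GRCm38.p6) were found for 29 of the 33 members, in 39 windows. The 250 bases before each start site were searched on both strands, and for TATAAA on the strand of the gene only. A CArG box, the element bound by serum response factor, stood in 8 of the 39 windows (20.5%), against 1.47% of the 32851 windows of all genes. These 8 windows belong to 7 members, since 1 box of Ldb3 lies in 2 overlapping windows. The M-CAT element CATTCC, bound by TEAD factors, was in windows of 11 members (28.2% of windows against 12.6% of all), and an MEF2 site in 4 (10.3% against 2.92%). AGATAA of GATA factors was in windows of 6 (17.9% against 9.99%), the E-box CANNTG in 24 (76.9% against 66.2%) and TATAAA in 2 (5.13% against 7.59%). A match is a description of the letters, a CArG box can hold a TATAAA within it, and the same promoter can hold several motifs. The CArG boxes with 25 bases on each side are shown because their share differs most from that of all windows. The lines below have the box in capitals and each sequence on the strand of the gene:
Actc1 (chr2:114052888-114052947, minus strand): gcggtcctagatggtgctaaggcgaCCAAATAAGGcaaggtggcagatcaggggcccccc
Acta1 (chr8:123894814-123894873, minus strand): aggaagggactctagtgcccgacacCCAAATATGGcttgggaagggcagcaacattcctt
Myl3 (chr9:110763568-110763627, plus strand): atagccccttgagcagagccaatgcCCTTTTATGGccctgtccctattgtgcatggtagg
Myl7 (chr11:5898809-5898868, minus strand): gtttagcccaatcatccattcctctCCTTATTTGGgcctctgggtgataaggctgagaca
Ldb3 (chr14:34588682-34588741, minus strand): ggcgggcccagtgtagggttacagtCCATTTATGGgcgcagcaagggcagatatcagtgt
Myom1 (chr17:71019433-71019492, plus strand): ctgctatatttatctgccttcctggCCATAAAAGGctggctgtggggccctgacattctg
Nebl (chr2:17462984-17463043, minus strand): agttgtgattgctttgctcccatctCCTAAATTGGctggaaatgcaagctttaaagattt

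Counted to the start site, the boxes began 47 bases before it in Actc1, 73 in Acta1, 61 in Myl7, 85 in Myl3, 99 in Myom1 and 162 in Nebl, and the box of Ldb3 lay 109 or 35 bases before 2 different start sites. In Acta1 the M-CAT letters follow the box within the stretch shown, and in Myl7 they precede it. Of these 7 genes only Acta1 has reads per library in CM (given below with the thin filament genes), and Actc1, Myl3, Myl7, Ldb3, Myom1 and Nebl are described by their base means.

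The CM comparison asks how the sarcomere program came on in the knockout clones. Of the 15 members with reads per library, 13 passed the filter of a mean of 10 normalized reads and 2, Myoz2 and Xirp2, did not. All 13 were lower in KO4 than in WT at an adjusted p under 0.05 (limma on log2 of normalized reads plus 0.5, Benjamini-Hochberg over 9530 genes), where 30.9% of all genes tested were called lower, 23.5% higher and 54.4% in either direction. In KO8, 9 of the 13 were called lower and 0 higher, against 12.2% of all genes called lower and 10.5% called higher (22.7% in all). At an unadjusted p under 0.05 limma found 0 higher as well, and voom weights called 1, Tmod1. The median log2 difference of the 13 members was -6.22 in KO4, or -5.70 with the 2 genes without a KO4 read set at their limit, and -0.97 in KO8, beside -0.06 and -0.01 over all genes tested. A member entered only if its base means were low enough for its reads to be recovered, which favours members that are low in a clone. Both clones are compared with the same WT libraries, and these counts describe the 13 genes and are no measure of the list. In a bulk culture, fewer cardiomyocytes and less of the RNA per cardiomyocyte cannot be told apart.

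Among the myosin light chains, Myl2, the regulatory light chain of the ventricle (chr5:122550960-122563481), had 909 and 1129 normalized reads in the WT libraries, 2.05 and 0 in KO4 and 165 and 205 in KO8. The KO4 libraries together held 2 reads of it and the 3 groups did not overlap. With so few reads the ratio is given with an interval for counting error alone, which takes reads as independent and would be wider if both ends of a fragment were counted as reads. WT exceeded KO4 979 (95% counting interval 271 to 8088) times and KO8 exceeded KO4 178 (95% counting interval 48.8 to 1472) times. Against WT the log2 difference of KO8 was -2.46 ± 0.60 (SE, adjusted p = 0.016), and its mean was 18.2% of that of WT. The fit pools the spread of the 3 groups into 1 SE per gene, so this SE takes in the KO4 libraries at 2.05 and 0.

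All 3 troponin genes with reads per library fell in both clones. Cardiac troponin I (Tnni3, chr7:4469907-4475831) had 242 and 283 normalized reads in WT, 16.4 and 25.2 in KO4 and 51.6 and 70.7 in KO8, in 3 groups that did not overlap. Its log2 difference from WT was -3.65 ± 0.29 (SE, adjusted p = 5.14e-06) in KO4 and -2.11 ± 0.29 (SE, adjusted p = 0.00098) in KO8, and KO8 was above KO4 by 1.55 ± 0.29 (SE, adjusted p = 0.00153). The calcium sensor Tnnc1 (cardiac troponin C, chr14:32021498-32024915) had 1237 and 1319 in WT, 17.4 and 15.8 in KO4 and 776 and 649 in KO8. KO4 held 1.30% of the WT mean and KO8 55.7%, with log2 differences of -6.22 ± 0.14 (SE, adjusted p = 3.89e-09) and -0.85 ± 0.14 (SE, adjusted p = 0.00273). The annotation holds 2 overlapping models of Tnnc1, and how reads were shared between them is not given in the sources used here. Slow skeletal troponin T (Tnnt1, chr7:4456172-4467984) had 127 and 173 in WT, 48.2 and 35.8 in KO4 and 46.9 and 71.7 in KO8. Here the clones overlapped, with log2 differences from WT of -1.82 ± 0.30 (SE, adjusted p = 0.000646) and -1.35 ± 0.30 (SE, adjusted p = 0.0112). The difference between them of 0.48 ± 0.30 (SE) was not called (adjusted p = 0.212).

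Of the thin filament genes, skeletal alpha-actin (Acta1, chr8:126415669-126418651), whose promoter is among those shown above, had 1240.2 and 1419.8 normalized reads in WT, 422 and 394 in KO4 and 446 and 491 in KO8. It fell in both clones, with log2 differences of -1.70 ± 0.10 (SE, adjusted p = 6.38e-07) and -1.50 ± 0.10 (SE, adjusted p = 4.63e-05). The clones did not overlap and differed by 0.20 ± 0.10 (SE), which was not called (adjusted p = 0.124). Acta1 lies on chromosome 8, where the median of 387 tested genes was 0.49 in KO4 and 0.50 in KO8 on the log2 scale, against -0.06 and -0.01 over all genes. It fell while the median of its chromosome was raised.

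The 2 genes that act at the pointed end of the thin filament parted from each other in KO8. Tropomodulin 1 (Tmod1, chr4:46051807-46128904), which caps that end, had 528 and 558 in WT, 4.10 and 6.31 in KO4 and 759 and 701 in KO8. Both KO8 libraries were above both WT libraries, by 0.43 ± 0.22 (SE) on the log2 scale, which was not called (adjusted p = 0.194). It was called with voom weights and with the KO8 and WT libraries alone. KO4 held 0.959% of the WT mean, a log2 difference of -6.60 ± 0.22 (SE, adjusted p = 1.77e-08). Lmod2 (chr6:24547771-24555414) had 70.9 and 118 in WT, no read in either KO4 library and 4.69 and 14.3 in KO8. WT was at least 60.3-fold higher than KO4, taking 3 reads over the group as the limit that a count of 0 allows, and KO8 was at least 5.98-fold higher than KO4. With 10.1% of the WT mean (-3.39 ± 0.72 SE, adjusted p = 0.00887), Lmod2 had the lowest share left in KO8 among the 13 members.

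**Figure D2:**
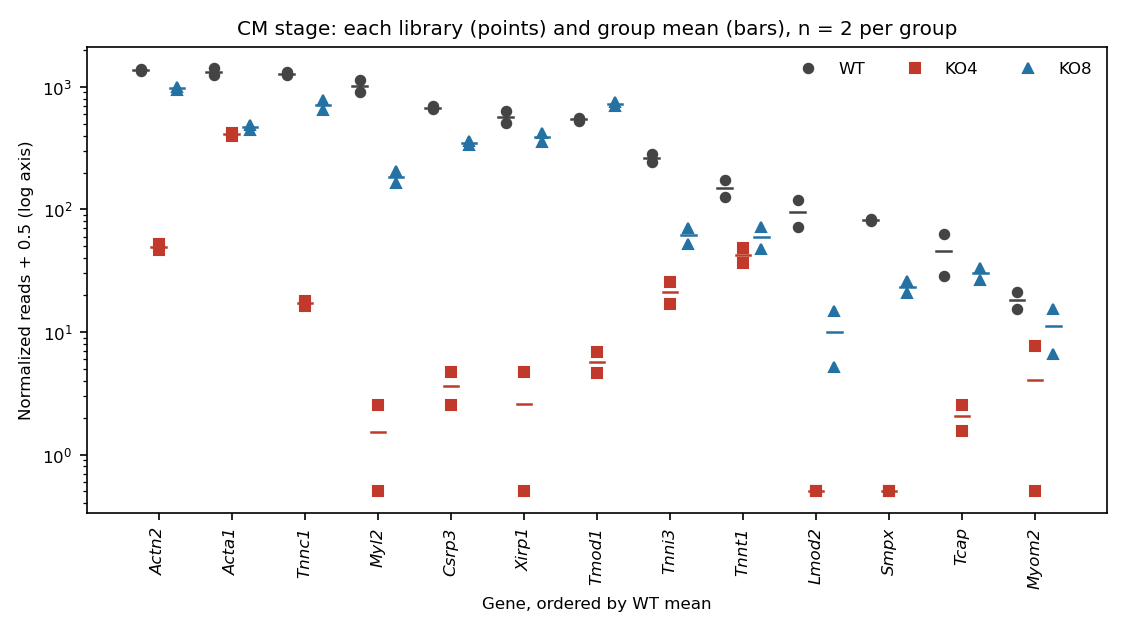
Normalized reads plus 0.5 on a log axis for the 13 tested genes in the CM stage. Each point is 1 library of WT (circles), KO4 (squares) or KO8 (triangles), bars are means of the 2 libraries, and points at 0.5 are libraries without a read. The KO4 points lie below the WT points for every gene shown, and the KO8 points lie between WT and KO4 or overlap one of them for all but Tmod1.

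At the Z-disc, alpha-actinin 2 (Actn2, chr13:12361693-12433027), the crosslinker of thin filaments, had 1349 and 1398 normalized reads in WT, 51.3 and 46.3 in KO4 and 989.6 and 950.4 in KO8. KO4 kept 3.55% of the WT mean and KO8 70.6%, with log2 differences of -4.80 ± 0.11 (SE, adjusted p = 3.82e-09) and -0.50 ± 0.11 (SE, adjusted p = 0.00886). Csrp3 (chr7:56085768-56103400) had 665 and 691 in WT, 2.05 and 4.21 in KO4 and 361 and 332 in KO8, so that KO4 held 0.462% and KO8 51.1% of the WT mean. Its log2 differences were -7.61 ± 0.29 (SE, adjusted p = 4.32e-08) and -0.97 ± 0.29 (SE, adjusted p = 0.0368). The SE is pooled over the groups and takes in the KO4 libraries at 2.05 and 4.21. For Actn2, Tnnc1 and Acta1 the base means allowed 7, 5 and 5 sets of whole reads, and the set whose libraries agreed within their groups was taken. In every other set found the libraries of some group differed by at least 2.13 times, against at most 1.19 times in the sets taken. The SE and p-values of these genes rest in part on that choice.

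The titin cap Tcap (chr11:98245125-98246267) was low throughout, with 28.0 and 62.1 in WT, 2.05 and 1.05 in KO4 and 26.3 and 32.8 in KO8. KO4 held 3 reads in all, and WT exceeded it 28.6 (95% counting interval 9.49 to 141) times. KO8 overlapped WT with a log2 difference of -0.50 ± 0.57 (SE) that was not called (adjusted p = 0.578). Smpx (chrX:154136842-154190523), a small muscle protein encoded on the X chromosome, had 79.3 and 82.8 in WT, no read in KO4 and 25.4 and 20.5 in KO8. WT was at least 52.0-fold and KO8 at least 14.8-fold higher than KO4 by the same limit, and the log2 difference of KO8 from WT was -1.81 ± 0.55 (SE, adjusted p = 0.0414). Xirp1 (chr9:119922873-119932716), which binds actin at the intercalated disc, had 632 and 505 in WT, 0 and 4.21 in KO4 and 416 and 357 in KO8. All KO8 libraries were below all WT libraries, but the log2 difference of -0.55 ± 0.78 (SE) was not called (adjusted p = 0.66). That SE is pooled over the 3 groups, with the KO4 libraries at 0 and 4.21, and does not measure the spread of KO8 and WT alone. KO4 held 0.37% of the WT mean and fell by 8.53 ± 0.78 (SE, adjusted p = 1.21e-05).

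In the M-band, Myom2 (chr8:15057653-15133541) was the weakest of the tested members, with 14.9 and 20.7 in WT, 7.18 and 0 in KO4 and 15.0 and 6.14 in KO8. KO4 was called lower (-3.21 ± 1.13 SE, adjusted p = 0.0357), a call that rested on the KO4 library without a read. Without that library the log2 difference was -1.23 with an adjusted p of 0.21. The call was also lost without either WT or either KO8 library, without the filter and with KO4 and WT alone. KO8 overlapped WT (-0.83 ± 1.13 SE, adjusted p = 0.648), and Myom2 too lies on chromosome 8, with the median given for Acta1. The members under the filter were Myoz2, with 7 reads in 1 WT library and none in the other 5 libraries, and Xirp2, with 0 to 4 reads per library.

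**Figure D3:**
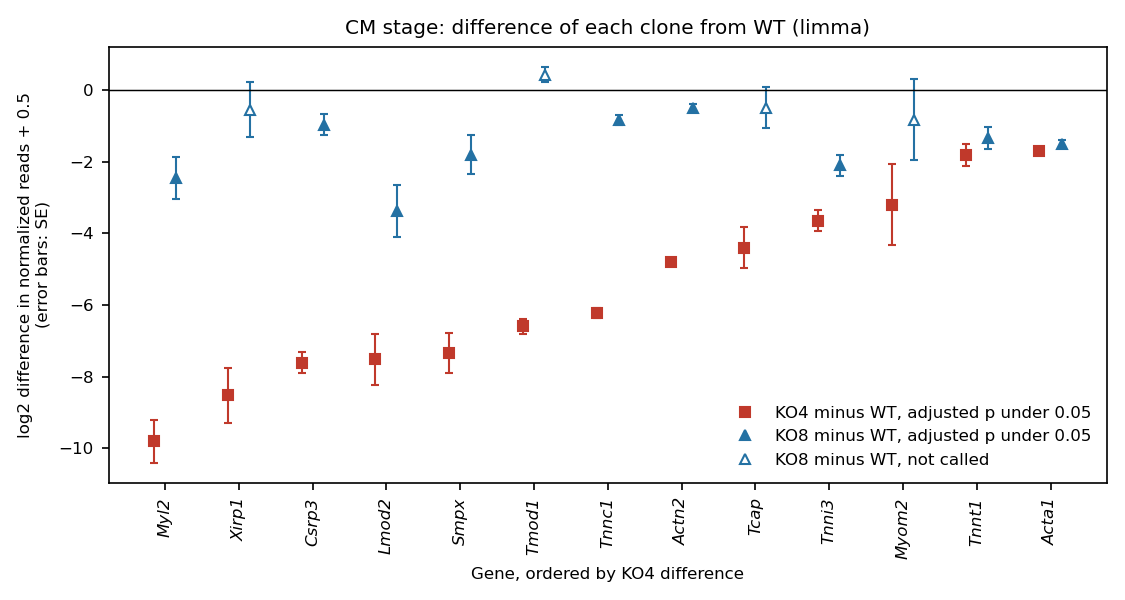
Log2 difference of KO4 (squares) and KO8 (triangles) from WT in the CM stage for the 13 tested genes, from limma on log2 of normalized reads plus 0.5. Bars are SE, filled symbols have an adjusted p under 0.05, and values of genes with few or no KO4 reads depend on the 0.5 that was added. KO4 lies from -9.81 (Myl2) to -1.70 (Acta1), and KO8 from -3.39 (Lmod2) to 0.43 (Tmod1).

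Set against each other, KO8 was above KO4 for 10 of the 13 members and below it for 0, where 30.0% of all genes tested were called higher in KO8 and 23.4% lower (53.4% in all). The median log2 difference of the members between the clones was 4.30, or 3.91 with the genes without a KO4 read at their limit, beside 0.04 over all genes. Xirp1 (7.98 ± 0.78 SE, adjusted p = 1.75e-05) and Tmod1 (7.03 ± 0.22 SE, adjusted p = 1.69e-08) stood furthest apart among members with more than 3 KO4 reads. They were followed by Csrp3 (6.64 ± 0.29 SE, adjusted p = 1.04e-07), Tnnc1 (5.38 ± 0.14 SE, adjusted p = 7.99e-09) and Actn2 (4.30 ± 0.11 SE, adjusted p = 6.57e-09). The members not called were Acta1, Tnnt1 and Myom2. Leaving out single libraries moved the count of members called lower in KO8 most. It was 3 without KO8 library a, 5 without KO8 library b and 3 without WT library b. The counts in KO4 and between the clones were 12 to 13 and 10 to 11. The KO8 calls of Acta1, Tnni3 and Tnnc1 held with any 1 library left out. For Acta1 and Tnnc1 this rests in part on the sets of reads taken, which were chosen for agreeing libraries. The KO8 calls of Actn2, Csrp3, Lmod2, Myl2, Smpx and Tnnt1 were each lost without KO8 library a and without WT library b. Without the filter on low genes 6 were called in KO8, and the calls of Myl2 (adjusted p = 0.0696), Csrp3 (0.0885) and Smpx (0.0642) were lost.

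The other 18 members were too abundant in CM for their reads to be recovered, and only what the base means fix between the clones is given, with no test and no value against WT. Because both tables of the stage share the WT libraries, the difference of their base means, brought to 1 scale, gives the difference between the KO8 and the KO4 mean. Their ratio gives the highest share of KO8 that KO4 can have held. By this measure 17 of the 18, all but Pdlim5, were higher in KO8 than in KO4, as were 49.1% of the 5106 genes with a base mean over 1000. A base mean over 25% higher in the KO8 table was found for 15 of the 18 and for 11.6% of those genes. The myosin heavy chains had base means of 5070.4 in the KO4 table and 7121 in the KO8 table for Myh6, and of 9693 and 13704 for Myh7. KO4 thus held at most 71.2% and 70.7% of the KO8 level of these motors. Actc1 had 9699 and 14218, which puts KO8 above KO4 by 9038 normalized reads and KO4 at no more than 68.2% of KO8.

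The tightest limits among these 18 were those of Tnni1, the troponin I of the early heart, where KO4 held at most 57.6% of the KO8 level. They were followed by the titin-binding repressor Ankrd1 with 59.1%, Myl7 with 60.3%, the Z-disc PDZ protein Ldb3 with 61.5%, the atrial light chain Myl4 with 62.4% and the intermediate filament desmin (Des) with 64.0%. For Ttn, Tnnt2 and the myosin-binding protein Mybpc3 the limits were 66.4%, 67.9% and 65.1%. Myom1, Nebl and Myl3, with 69.9%, 75.1% and 76.2%, and the small heat shock protein Cryab with 85.0% were less constrained. These are limits reached only if WT held no read, so a share far below them is allowed. Tpm1 and Pdlim5, both also expressed outside muscle, differed least between the tables, with base means of 20152 and 20556 and of 3720.4 and 3702.

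**Figure D4:**
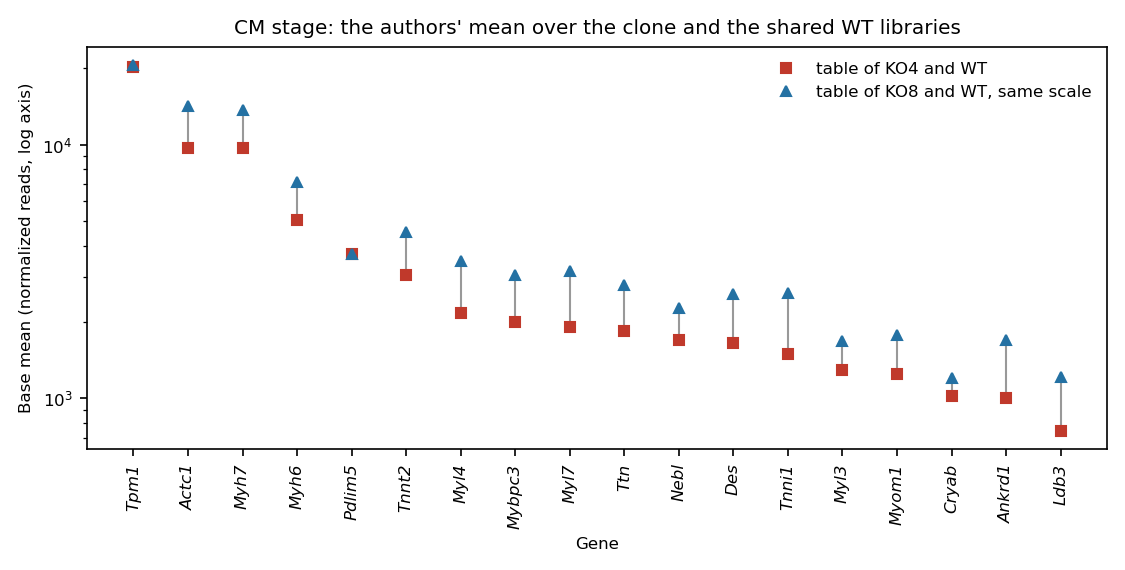
Base means, in normalized reads on a log axis, of the 18 genes whose reads per library were not recovered in CM. Squares are the table of KO4 and WT and triangles the table of KO8 and WT on the same scale, both being the authors' means without error, so the gap reflects the clones alone. It is absent to the eye for Tpm1 and Pdlim5 and opens upward in KO8 for the others.

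Other genes of the sarcomere and Z-disc, 51 by a list of names, were read beside the members. Reads were recovered for 33 and 28 passed the filter, of which 21 were called lower and 1 higher in KO4, 11 lower and 0 higher in KO8, and 19 higher and 3 lower in KO8 against KO4. Of all genes tested, 30.9% were called lower and 23.5% higher in KO4, 12.2% and 10.5% in KO8, and 30.0% higher and 23.4% lower between the clones. The 4 genes named next were picked after their values were seen. The cardiac myosin light chain kinase Mylk3 had 378 and 434 normalized reads in WT, 0 and 1.05 in KO4 and 745 and 644 in KO8. As for Tmod1, both KO8 libraries were above WT, which was not called (0.77 ± 0.45 SE, adjusted p = 0.251). That SE is pooled over the 3 groups, with the KO4 libraries at 0 and 1.05, and does not measure the spread of KO8 and WT alone. The ubiquitin ligase Trim55 had 829 and 1050.3 in WT, 2.05 and 2.10 in KO4 and 297 and 303 in KO8. Dystrophin (Dmd), which ties the cytoskeleton to the membrane, was the gene called higher in KO4, with 271 and 292 in WT, 900.0 and 926 in KO4 and 186 and 218 in KO8. As a mean over WT and clone libraries, Dmd was at 105 ppm in naive cells, 67.1 in primed cells, 29.3 in NPC and 23.3 in CM. Tmod2, the neuronal tropomodulin, had 762 and 767 in WT, 778 and 832 in KO4 and 561 and 543 in KO8, and was called lower in KO8 (-0.47 ± 0.08 SE, adjusted p = 0.0031).

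Markers of other cells in CM were read as sums of normalized reads over the recovered genes of each list, and the lists went in different directions. The shares of all genes called at this stage are those given above. Of the pluripotency markers, 5 of 6 were recovered (Nanog, Zfp42, Esrrb, Dppa5a and Utf1), and all 5 were called higher in KO4 and lower in KO8. They had sums of 1906 to 2378 in the WT libraries, 4602 to 6455 in KO4 and 552 to 557 in KO8. Cardiomyocyte genes outside the sarcomere (4 of 12 recovered, Tbx5, Pln, Nppa and Nppb) summed to 353 to 368 in WT, 14.4 to 21.0 in KO4, where Pln was at 0, and 369.7 to 424 in KO8. Most of the KO8 sum was Tbx5, with 369.9 and 321 against 215 and 205 in WT. Its difference of 0.71 ± 1.10 (SE) was not called by limma (adjusted p = 0.693). That SE takes in the KO4 libraries at 0 and 12.6 and does not measure the spread of KO8 and WT alone. The median log2 difference of the 4 was -1.09 in KO8 and -4.90 in KO4. All 4 were called lower in KO4, and Pln and Nppb in KO8, and the other 8, among them Nkx2-5 and Gata4, had the higher base mean in the KO8 table. The endothelial list (1 of 6 recovered, Emcn) was at 572 to 767 in WT, 3.08 to 6.31 in KO4 and 230.0 to 241 in KO8. Emcn was called lower in both clones, and the other 5 genes had the higher base mean in the KO8 table. In the same order, the endoderm list (4 of 6) was at 1250.3 to 2354, 154 to 278 and 2420.5 to 2441, with 3 genes called lower in KO4 and 0 called in KO8. The mesenchyme list (Dcn and Lum, 2 of 6) was at 283 to 459.7, 51.3 to 61.0 and 1452 to 1803. Dcn and Lum were both called lower in KO4 and higher in KO8. The other 4 mesenchyme genes, which the sums leave out, had the higher base mean in the KO8 table. Col1a1 had 6750 in the KO4 table and 18873 in the KO8 table, Col1a2 6826 and 15147, Col3a1 3786 and 15242, and Postn 932 and 8099. Smooth muscle genes (3 of 6) were at 1084 to 1269 in WT, 842 to 876 in KO4 and 881 to 883 in KO8, sums made up mostly of Cnn1. Actg2 had 50.4 and 46.3 in WT, 9.24 and 24.2 in KO4 and 215 and 241 in KO8, called lower in KO4 and higher in KO8. Myh11 had 17.7 and 45.3 in WT, 2.05 and 2.10 in KO4 and 42.3 and 18.4 in KO8, called lower in KO4 and not called in KO8. Cnn1 was called lower in both clones. Neural genes (3 of 6, with Neurog2 at 0 in KO4) were, in the order WT, KO4 and KO8, 143 to 163, 303 to 388 and 58.2 to 68.6. Of the 2 past the filter, 1 was called higher in KO4 and both lower in KO8. The other 3 had the higher base mean in the KO4 table. Sox1 had 1757 there and 84.9 in the KO8 table, Pax6 1425 and 78.2, and Nes 4874 and 3144. The recovered sums leave out these larger differences. The skeletal muscle list (7 of 7) had 1 gene past the filter, Actn3, which was called higher in KO4. The list summed to 76.5 to 97.5 in WT, 253 to 288 in KO4 and 67.6 to 75.8 in KO8. Myf5 and Ckm were at 0 in KO4 and Myod1, Myf5 and Myf6 at 0 in KO8. Most of each sum was Actn3, with 58.7 and 84.7 in WT, 282 and 228 in KO4 and 65.7 and 73.7 in KO8. As a mean over WT and clone libraries, Actn3 was highest in primed cells, with 36.5 ppm, and lower in CM. Its rise in KO4 is thus no measure of skeletal muscle RNA, which was not tested. The part of these cells in the values of the sarcomere genes was not tested.

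In NPC, 19 members were tested, of which 4 were called lower and 0 higher in KO4 (2.95% and 4.58% of all genes). In KO8, 1 was lower and 2 were higher (4.06% and 7.38% of all genes, 11.4% in all). Against KO4, 3 were higher in KO8 and 0 lower (0.775% and 0.471% of all genes, 1.25% in all). Mybpc3 had 80.5 and 134 normalized reads in WT, 14.5 and 13.6 in KO4 and 189 and 72.0 in KO8. Its log2 difference in KO4 was -2.84 ± 0.45 (SE, adjusted p = 0.00798), and its KO8 libraries lay on either side of the WT mean. Ankrd1 had 55.9 and 51.1 in WT, 6.76 and 10.4 in KO4 and 34.2 and 46.1 in KO8, a log2 difference of -2.60 ± 0.40 (SE, adjusted p = 0.00725) in KO4. Acta1 had 59.6 and 58.4 in WT, 17.4 and 15.6 in KO4 and 44.1 and 38.4 in KO8, and was called lower in KO4 (-1.81 ± 0.33 SE, adjusted p = 0.0132), where the median of chromosome 8 was 0.52.

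Tnni1 was the member called in both clones in NPC, with 236 and 219 in WT, 111 and 114 in KO4 and 115 and 126 in KO8. Its log2 differences were -1.01 ± 0.18 (SE, adjusted p = 0.013) and -0.91 ± 0.18 (SE, adjusted p = 0.0136) against the same WT libraries. Tnnt2 moved apart between the clones. It had 16.1 and 11.5 in WT, 3.86 and 5.22 in KO4 and 48.6 and 50.9 in KO8. It was called higher in KO8 (1.83 ± 0.48 SE, adjusted p = 0.0386) and differed between the clones by 3.33 ± 0.48 (SE, adjusted p = 0.0142). Cryab, a chaperone of desmin, had 13.3 and 25.0 in WT, 11.6 and 24.0 in KO4 and 58.5 and 70.1 in KO8, and was called higher in KO8 (1.78 ± 0.48 SE, adjusted p = 0.044). None of the 4 calls in KO4 was kept when any single KO4 or WT library was left out, and the higher calls in KO8 fell to 0 to 1 of 2 over the 6 libraries left out in turn. The call of Tnni1 in KO8 was lost without either WT library, and the 3 calls between the clones without any 1 of the KO4 or WT libraries. The KO8 libraries of this stage are the pair that stood furthest apart.

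In primed cells 13 members were tested, and 4 were called lower and 0 higher in KO4 (11.1% and 8.32% of all genes). In KO8, 1 was lower and 1 higher (6.95% and 7.53% of all genes). Against KO4, 1 was higher in KO8 and 0 lower (2.03% and 0.928%, 2.96% in all). Titin was the best measured of them, with 328 and 279 normalized reads in WT, 211 and 242 in KO4 and 426 and 410.0 in KO8, so that the 3 groups did not overlap. It was lower than WT in KO4 (-0.42 ± 0.12 SE, adjusted p = 0.0105) and higher in KO8 (0.46 ± 0.12 SE, adjusted p = 0.00605), and the clones differed by 0.89 ± 0.12 (SE, adjusted p = 4.42e-06). Ldb3 had 89.3 and 86.8 in WT, 58.0 and 55.4 in KO4 and 75.6 and 71.9 in KO8, and was called lower in KO4 (-0.63 ± 0.23 SE, adjusted p = 0.0457). Myh7 had 41.8 and 31.9 in WT, 6.11 and 20.5 in KO4 and 12.1 and 17.1 in KO8, and was called lower in KO4 (-1.65 ± 0.50 SE, adjusted p = 0.0159). Its KO8 libraries were also below both WT libraries. Mybpc3 had 12.4 and 39.9 in WT, 4.07 and 6.16 in KO4 and 9.07 and 16.0 in KO8, and was called lower in KO4 (-2.05 ± 0.63 SE, adjusted p = 0.018). Actc1 had 22.8 and 25.9 in WT, 2.04 and 18.5 in KO4 and 0 and 4.57 in KO8, and was called lower in KO8 (-3.96 ± 0.96 SE, adjusted p = 0.00296). These 3 rest on few reads. The 4 calls in KO4 fell to 0 without KO4 library a and to 1 without either WT library. The call of Actc1 in KO8 was lost without KO8 library a or WT library b, as was that of titin in KO8, and the call of titin in KO4 without KO4 library a or WT library a. Without the filter on low genes, titin lost its call in KO4 (limma adjusted p = 0.0708) and in KO8 (0.0652). The difference of titin between the clones was called with each library left out.

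In naive cells 10 members were tested and 0 were called in either clone or between the clones by limma, while 24.8% and 22.6% of the 2774 genes tested were called against WT and 6.38% between the clones (5.19% higher in KO8). At an unadjusted p under 0.05, 3 differed in KO4, 1 in KO8 and 0 between the clones, and voom weights called 0 as well. Without KO4 library b, KO4 library c or WT library c, 1 member was called lower in KO4, and without WT library c 1 was called higher. Myl2 had 3.64, 5.00 and 11.5 in WT, 14.6, 18.3 and 15.6 in KO4 and 17.8, 10.9 and 5.25 in KO8, and its difference in KO4 of 1.36 ± 0.56 (SE) had an adjusted p of 0.0727. Actn2 had 28.2, 29.0 and 14.6 in WT, 11.7, 6.10 and 18.8 in KO4 and 21.8, 11.9 and 8.40 in KO8, with -1.02 ± 0.44 (SE) in KO4 (adjusted p = 0.0855). Myh6 had 19.1, 16.0 and 16.7 in WT, 26.4, 27.4 and 20.8 in KO4 and 35.6, 24.8 and 30.5 in KO8, with 0.78 ± 0.31 (SE) in KO8 (adjusted p = 0.0637). The WT and KO4 libraries overlapped for Actn2 and did not for Myl2, and for Myh6 neither clone overlapped WT. In all, 12 members were under the filter, 3 (Myoz2, Smpx and Lmod2) had no read in any library and 8 were too abundant to be recovered.

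**Figure D5:**
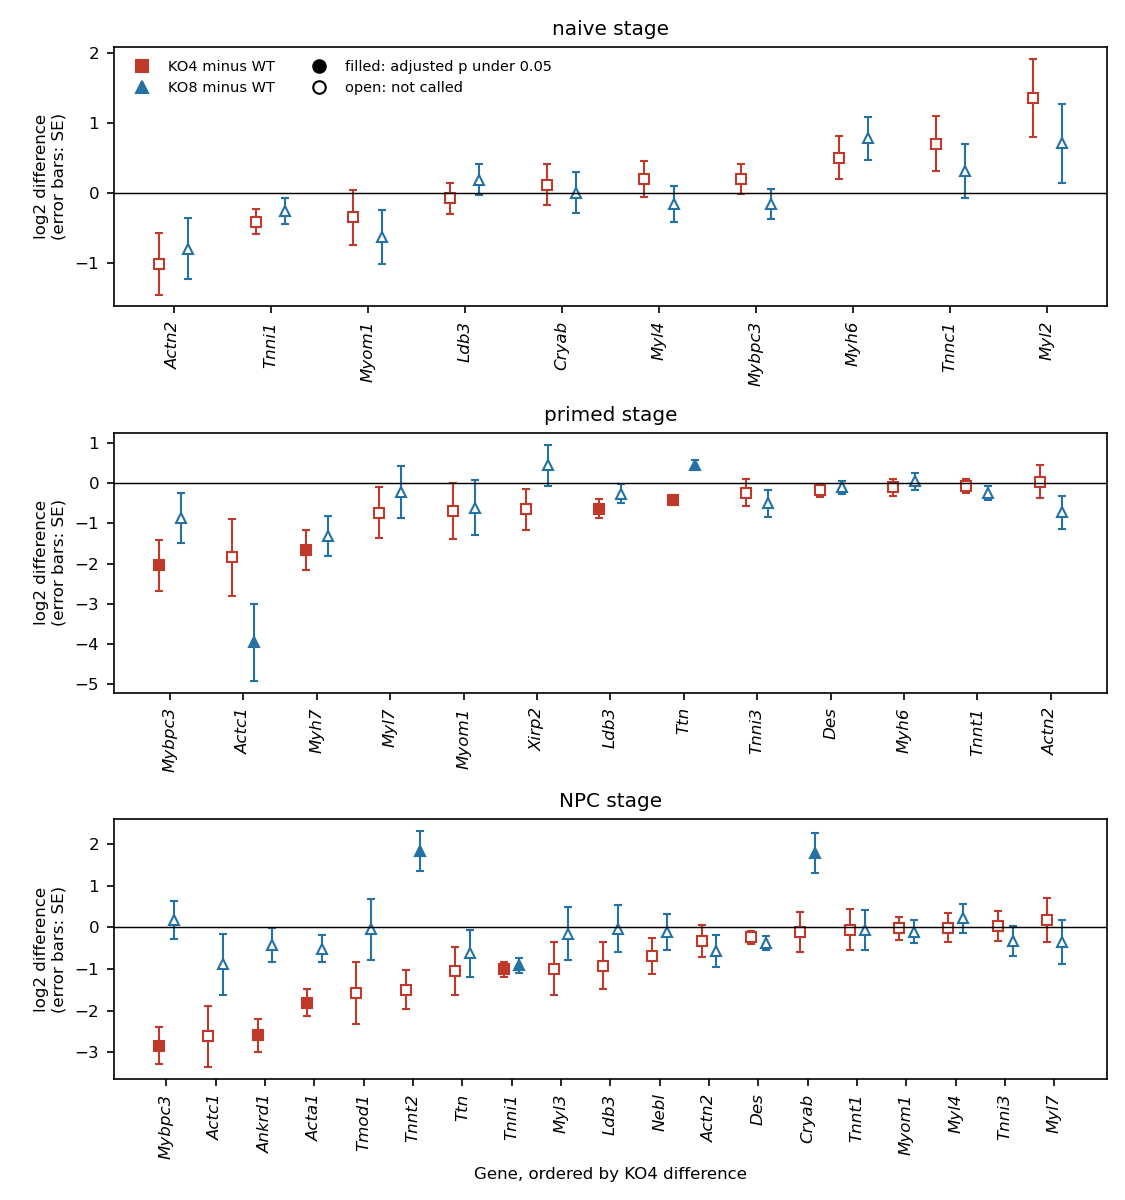
Log2 difference of KO4 (squares) and KO8 (triangles) from WT for the members tested in naive (10), primed (13) and NPC (19) libraries, ordered by the KO4 difference, with SE as bars and filled symbols for an adjusted p under 0.05. No symbol is filled in naive cells, and the clones lie on opposite sides of 0, for example, for titin in primed cells and for Tnnt2 and Mybpc3 in NPC.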

How the data were processed

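RNA was sequenced from 27 libraries of WT, KO4 and KO8 cells at 4 stages. According to the labels and methods, the authors trimmed reads with Trim Galore 0.6.7, aligned them to mm9 with HISAT2 2.2, counted them per gene with featureCounts (version not given in the sources used here) and compared each clone with WT in DESeq2 1.46.0. The 8 deposited tables hold 25209 genes each with the authors' base mean, a signal in normalized reads averaged over the libraries of a clone and WT, and 5 columns of the authors' comparisons (log2 fold change, its error, test statistic, p-value and adjusted p-value), which were not used.

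Base means carry 10 significant digits. Because both tables of a stage share the WT libraries, whole reads per library were worked out from the digits of both base means, and a set of reads was accepted when it held at least 99% of the weight given by agreement between replicates. Above a base mean of 1000 only sets with WT libraries within about 2 times of each other were searched. For Actn2, Tnnc1 and Acta1 in CM several sets were possible, although per-library values had been planned only for genes with a unique set. The recovered reads were tested by limma 3.58.1 in R 4.3.3 (trended empirical Bayes over the 3 groups of a stage) on log2 of normalized reads plus 0.5, with a mean of at least 10, and Benjamini-Hochberg adjustment over all genes tested (called at an adjusted p under 0.05). Recovery and tests were tested on simulated data. KO8 was set against KO4 in the same fit, which had been planned for CM alone. Alternatives were an offset of 2, a mean of 50 or no filter, voom weights, another scaling, a clone with WT alone and each library left out. Letters a, b and c only name libraries. Intervals and limits cover counting error only. The members and lists were chosen with earlier results of these data known. The values of 1 gene of the comparison list are not reported here.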

Additional observations from a re-analysis of the deposited data

Results flagged for a closer look

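The clones differed from each other, in a direct limma test of KO8 against KO4, for 10 of 13 members tested in CM, 3 of 19 in NPC and 1 of 13 in primed cells. Of all genes tested, 53.4% were called between the clones in CM, 1.25% in NPC and 2.96% in primed cells. In CM these were Actn2, Csrp3, Lmod2, Myl2, Smpx, Tcap, Tmod1, Tnnc1, Tnni3 and Xirp1, in NPC Ankrd1, Mybpc3 and Tnnt2, and in primed cells Ttn, all higher in KO8.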

How the results depend on the processing

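No paired analysis was possible because the recovered reads carry no replicate number. Of 640 settings of single genes, 539 kept direction and call, 101 kept the direction but lost the call and 0 reversed, and 26 of 49 called values kept their call throughout. In CM, the members called lower in KO8 (9) were 3 to 9 with a library left out and 6 without a filter, and those called higher (0) were 1 with voom weights and 1 with KO8 and WT alone. In NPC, the 4 lower in KO4 became 2 with a mean of 50 and 0 to 5 with a library left out, the 1 lower in KO8 became 0 to 1, the 2 higher in KO8 became 0 with a mean of 50, 0 without a filter, 1 with KO8 and WT alone and 0 to 1 with a library left out, and the 3 higher in KO8 than in KO4 became 1 with a mean of 50, 1 without a filter, 1 with voom weights and 0 to 4 with a library left out. In primed cells, the 4 lower in KO4 became 2 with a mean of 50 and 0 to 4 with a library left out. Without a filter 1 member was called lower in KO4, but none of these 4 kept its call. The 1 lower in KO8 became 0 with a mean of 50, 0 without a filter and 2 with voom weights. It became 2 with KO8 and WT alone and 0 to 2 with a library left out. The 1 higher in KO8 became 0 without a filter and 0 to 1 with a library left out. The 0 lower in KO8 than in KO4 became 0 to 1. In naive cells the 0 lower and 0 higher in KO4 became 0 to 1 each. With a mean of 50, the members missing from these counts were under that filter and no longer tested. Beyond the fewer genes or samples these settings use, the cause was not tested. Restricting CM to genes with a single set of reads, chosen after seeing the data, left 10 lower in KO4 and 6 in KO8, and to base means up to 1000, also chosen after, 11 and 7. The first leaves out Actn2, Tnnc1 and Acta1 and the second Actn2 and Tnnc1, and the members still tested kept their calls. Members with base means over about 1300 have no values per library.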

Other observations

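Even numbers of reads were more frequent than odd ones among the recovered values at every stage. In CM, 2417 values were of 1 read and 5444 of 2 reads, and 1459 were of 3 reads and 2616 of 4 reads. In naive libraries the same numbers were 3748, 7513, 2211 and 3745. Whether both ends of a fragment were counted is not given in the sources used here.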
